A study of Mus musculus with 12 samples.

Results

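The cyclin-dependent kinase inhibitors Cdkn1a, Cdkn1b, Cdkn1c, Cdkn2a, Cdkn2b, Cdkn2c and Cdkn2d and the D-type cyclins Ccnd1, Ccnd2 and Ccnd3 were followed in TM3 cells exposed to methoxyacetic acid (MAA), the active metabolite of ethylene glycol monomethyl ether. These 10 genes were chosen by name, among 15980 genes with a named probe, by a rule that uses no measured value, although earlier results of these data were known when it was set. The name column of the arrays holds accessions, so the members were found by matching RefSeq accessions to gene symbols, and all 10 were found with 13 probes. Cdkn1b had 2 probes, Ccnd2 had 3 and each of the others had 1, and the probe with the highest mean signal stands for the gene unless another is named.

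TM3 is a line of Leydig cells, the testosterone-producing cells of the testis, derived from an immature Balb/c mouse. Exposure was to 5 mM or to 1 mM of MAA and lasted 3 h, 8 h or 24 h, and RNA from each of these 6 treatments was hybridized on 2 two-colour Agilent arrays against time-matched RNA of TM3 cells given culture medium alone (n = 2 arrays per treatment). Every RNA was a pool of 3 cultures, the arrays of a treatment held separate pools of MAA-treated cells, and the dyes were exchanged between them, with the treated RNA carrying Alexa 555 (green) on replicate 1 and Alexa 647 (red) on replicate 2. Both concentrations at a time were set against medium-alone cells of that time, so responses at 5 mM and 1 mM may not be independent of each other. The 12 arrays lay on 3 slides of 4 arrays, and a single cell line in culture is the limit of this model.

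Cyclin-dependent kinase inhibitors fall into 2 families: the CIP/KIP proteins encoded by Cdkn1a (p21), Cdkn1b (p27) and Cdkn1c (p57), which bind several cyclin-kinase complexes, and the INK4 proteins encoded by Cdkn2a (p16, with p19Arf from another reading frame), Cdkn2b (p15), Cdkn2c (p18) and Cdkn2d (p19), which bind CDK4 and CDK6 only. D-type cyclins activate those kinases when growth factors are present, the kinases phosphorylate the retinoblastoma protein, and E2F factors then switch on genes of S phase. Leydig cells divide before and during puberty and stop dividing as they mature, and the balance of these proteins sets whether a cell leaves G1.

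The median log2 MAA/control of all probes was -0.10 at 5 mM for 3 h and between -0.07 and 0.03 in the other treatments, and the 2 arrays of a treatment correlated across probes with r of 0.496 to 0.644 (5 mM) or -0.133 to 0.310 (1 mM). Probes well above background made up 62.1% to 69.2% of all probes in the MAA channel and 61.5% to 70.3% in the control channel. Of 8 Leydig cell markers, Star, Cyp17a1 and Insl3 were well above background in the control channel on all 12 arrays. Cyp11a1, Hsd3b1 and Lhcgr, the side-chain cleavage enzyme, a steroid dehydrogenase and the luteinizing hormone receptor, were above background there on none. Nr5a1 was above it there on 8 arrays and Hsd17b3 on 1. The summed signal of all 8 at 24 h was 775 to 1143 in medium alone, 782 to 853 at 1 mM and 647 to 679 at 5 mM. By limma with a Benjamini-Hochberg adjusted p under 0.05 at 24 h, 0 of the 8 changed at 1 mM. At 5 mM 1 rose and 1 fell. Of all probes, 6.66% rose and 4.66% fell at 1 mM, and 14.6% rose and 15.8% fell at 5 mM. Of 8 Sertoli cell markers, Sox9, Clu and Trf were above background in the control channel on all 12 arrays and Cldn11 on none. Gata1 was above it there on 6, and Amh, Fshr and Dhh on 2 each. The summed signal of all 8 at 24 h was 4946 to 7130 in medium alone, 17331 to 21162 at 1 mM and 19527 to 22718 at 5 mM. By the same limma test at 24 h, 4 of these 8 rose and 0 fell at 1 mM, and 3 rose and 1 fell at 5 mM. Of 6 smooth muscle markers, Acta2, Cnn1, Tagln and Actg2 were above background on all 12 arrays. Des was above it in 8 control and 9 MAA channels and Myh11 in 5 and 7. The sum of all 6 at 24 h was 21709 to 30891 in medium alone, 26438 to 31851 at 1 mM and 37954 to 42941 at 5 mM. Of the germ cell markers, Ddx4, Prm1 and Tnp1 were above background in the control channel on all 12 arrays and Mael on none. Prm2 was above it there on 9, Sycp3 on 5 and Dazl on 1. The sum of all germ cell markers with a probe at 24 h was 753 to 1025 in medium alone, 703 to 716 at 1 mM and 593 to 637 at 5 mM. At 3 h it was 1206 to 1623, 1029 to 1217 and 1794 to 2004 in the same order. By the same limma test at 24 h, 0 of the 7 with a probe changed at 1 mM, and 1 rose and 2 fell at 5 mM. Of 4 macrophage markers with a probe, Ptprc and Itgam were above background in no channel, Emr1 in 0 control and 4 MAA channels, and Mrc1 in 11 control and 12 MAA channels, and their summed signal at 24 h was 16.8 to 29.4 in medium alone, 44.8 to 48.6 at 1 mM and 120 to 131 at 5 mM. Of 6 endothelial markers, Pecam1 and Kdr were above background in no channel, Cdh5 in 0 control and 2 MAA channels, Vwf in 1 and 3, Emcn in 5 and 4 and Tek in 8 and 7, and their sum at 24 h was 76.7 to 134 in medium alone, 151 to 204 at 1 mM and 88.3 to 106 at 5 mM. The part of these markers in the results was not tested, and fewer cells of a type and less RNA per cell cannot be told apart in such pools.

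Promoter windows of Cdkn1a, Cdkn2c and Ccnd3, which changed at more than one time of 5 mM MAA, are shown because the study examined SP1 and EGR motifs upstream of MAA-responsive genes. The study searched a longer stretch upstream. It found these motifs enriched against genes not expressed in TM3 cells, but not against expressed genes without an MAA response. The windows hold the 250 bases before an annotated start, read 5′ to 3′ on the strand of the gene from RefSeq (GRCm38.p6), with capitals for GC boxes (GGGCGG), EGR cores (GTGGGCG), CRE cores (TGACG), E-boxes (CACGTG), AP-1 sites (TGANTCA) and TATA boxes (TATAAA) on either strand. Cdkn1a, on chromosome 17 from 29090979 to 29100722, has one start just after chr17:29090729-29090978 and another just after chr17:29093519-29093768, both on the plus strand. Cdkn2c lies on chromosome 4 from 109660876 to 109666756 on the minus strand, behind chr4:109666757-109667006. Ccnd3 lies on chromosome 17 from 47505051 to 47599689 on the plus strand, behind chr17:47504801-47505050.
Cdkn1a, upstream start: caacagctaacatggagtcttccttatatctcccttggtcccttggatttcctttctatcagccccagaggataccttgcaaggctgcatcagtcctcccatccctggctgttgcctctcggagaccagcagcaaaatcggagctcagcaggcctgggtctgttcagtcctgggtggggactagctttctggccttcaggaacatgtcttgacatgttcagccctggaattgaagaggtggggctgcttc
Cdkn1a, downstream start: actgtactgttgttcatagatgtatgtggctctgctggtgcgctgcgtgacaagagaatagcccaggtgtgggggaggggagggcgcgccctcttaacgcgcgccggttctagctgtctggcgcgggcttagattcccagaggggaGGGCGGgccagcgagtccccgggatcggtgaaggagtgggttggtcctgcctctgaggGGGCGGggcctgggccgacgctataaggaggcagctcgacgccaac
Cdkn2c: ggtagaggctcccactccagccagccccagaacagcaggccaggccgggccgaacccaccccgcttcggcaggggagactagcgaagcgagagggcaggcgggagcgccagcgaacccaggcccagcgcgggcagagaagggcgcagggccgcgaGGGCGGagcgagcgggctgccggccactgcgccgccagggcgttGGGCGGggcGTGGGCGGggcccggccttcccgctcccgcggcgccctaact
Ccnd3: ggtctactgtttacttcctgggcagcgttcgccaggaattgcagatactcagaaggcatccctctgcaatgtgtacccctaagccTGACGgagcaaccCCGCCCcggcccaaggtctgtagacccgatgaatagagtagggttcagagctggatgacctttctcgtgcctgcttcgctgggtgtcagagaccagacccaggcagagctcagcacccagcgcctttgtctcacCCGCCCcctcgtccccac

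The Cdkn2c window shown held 3 GC boxes and 1 EGR core, which overlaps one of the boxes, and its other window, at chr4:109665373-109665622, held none of the 6 motifs. The window at the downstream Cdkn1a start held 2 GC boxes, and the one at the upstream start held none of the 6 motifs. Ccnd3 had 2 GC boxes and 1 CRE core before its upstream start, and Cdkn2d (chromosome 9, 21288459 to 21291421, minus strand) had 3 GC boxes and 1 EGR core before an annotated start. That Cdkn2d window, chr9:21291210-21291459, lies mostly inside the annotated span of the gene and is not shown. Windows of Ccnd1, Ccnd2 and Cdkn1c were not analysed here. Of the other members, Cdkn1b had 1 GC box, Cdkn2a had 2 at its upstream start, and Cdkn2b had 2 CRE cores, which overlap on opposite strands. Over all 32851 windows of the same length, 32.7% held a GC box, 7.02% an EGR core, 17.8% a CRE core, 6.02% an E-box, 6.75% an AP-1 site and 12.4% a TATA box. These windows were not limited to genes expressed in TM3 cells, so the shares do not show whether the members differ from other expressed genes. These are matches of letters and not sites of binding.

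A probe is counted as called where the unadjusted limma p was below 0.005 and the change exceeded the limit the study set, 2-fold for 5 mM and 1.5-fold for 1 mM. A gene is said to have risen or fallen where the Benjamini-Hochberg adjusted p, taken over all probes, was below 0.05. At 5 mM MAA, 0 of the 10 members were called at 3, 8 or 24 h, against 3.76%, 5.55% and 5.62% of all probes, and 10.1% of probes were called at one or more of these times. With no fold limit and no adjustment, 5, 5 and 4 members had a limma p below 0.05 at 3, 8 and 24 h. By adjusted p, 4 of the 10 members changed at each time, against 24.0%, 30.4% and 30.4% of all probes, a share of members not far above that of all probes. Cdkn1a, Cdkn2d and Ccnd3 rose and Cdkn2c fell at 3 h, where 11.8% of all probes rose and 12.3% fell, and again at 8 h, where 15.4% rose and 15.0% fell. At 24 h Cdkn1a, Cdkn1c and Cdkn2d rose and Cdkn2c fell, against 14.6% of probes that rose and 15.8% that fell. The Cdkn1c value rests on a control channel that was not above background on 1 of the 2 arrays.

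Fewer probes changed at 1 mM MAA. Cdkn1a and Ccnd1 were called at 8 h, both up, against 1.72% of all probes called up and 2.37% either way, and 0 members were called at 3 or 24 h, against 1.95% and 4.68%. By adjusted p, Cdkn1a, Cdkn2d and Ccnd3 rose and Cdkn2c fell at 3 h (4 of 10, against 4.62% of all probes, 2.71% up and 1.91% down). Cdkn1a, Ccnd1 and Ccnd3 rose at 8 h (3 of 10, against 5.53%, 3.40% up and 2.13% down), and Cdkn2c fell at 24 h (1 of 10, against 11.3%, 6.66% up and 4.66% down). With the 6 arrays at 1 mM fitted alone none of these passed, and with the arrays centred on their medians none passed at 3 or 24 h. The median log2 ratio of the 10 members, including Cdkn2a and Cdkn2b that were not measured above background, was -0.05, -0.02 and 0.24 at 5 mM for 3, 8 and 24 h, beside -0.10, -0.04 and 0.03 for all probes. The corresponding medians with 1 mM were 0.28, 0.32 and -0.00, beside 0.02, 0.02 and -0.07.

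The members were also compared between times and between concentrations by adjusted p. With 10 genes, the counts below cannot be set apart from the shares of all probes beside them. These counts were higher with the replicate number as a block, as given in the closing section. Of the 10 members, 0 changed between 3 and 8 h of 5 mM (5.10% of all probes did), 0 between 8 and 24 h (8.91%), 1 between 3 and 24 h (15.8%) and 0 between 3 and 24 h of 1 mM (1.85%). Between 5 and 1 mM, 0 members differed at 3 h (3.40% of all probes did), 0 at 8 h (10.1%) and 1 at 24 h (8.41%). Before adjustment, 3, 2, 4 and 2 members had a limma p below 0.05 for the changes with time, in the same order, and 2, 3 and 3 for the concentrations at 3, 8 and 24 h.

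**Figure D1:**
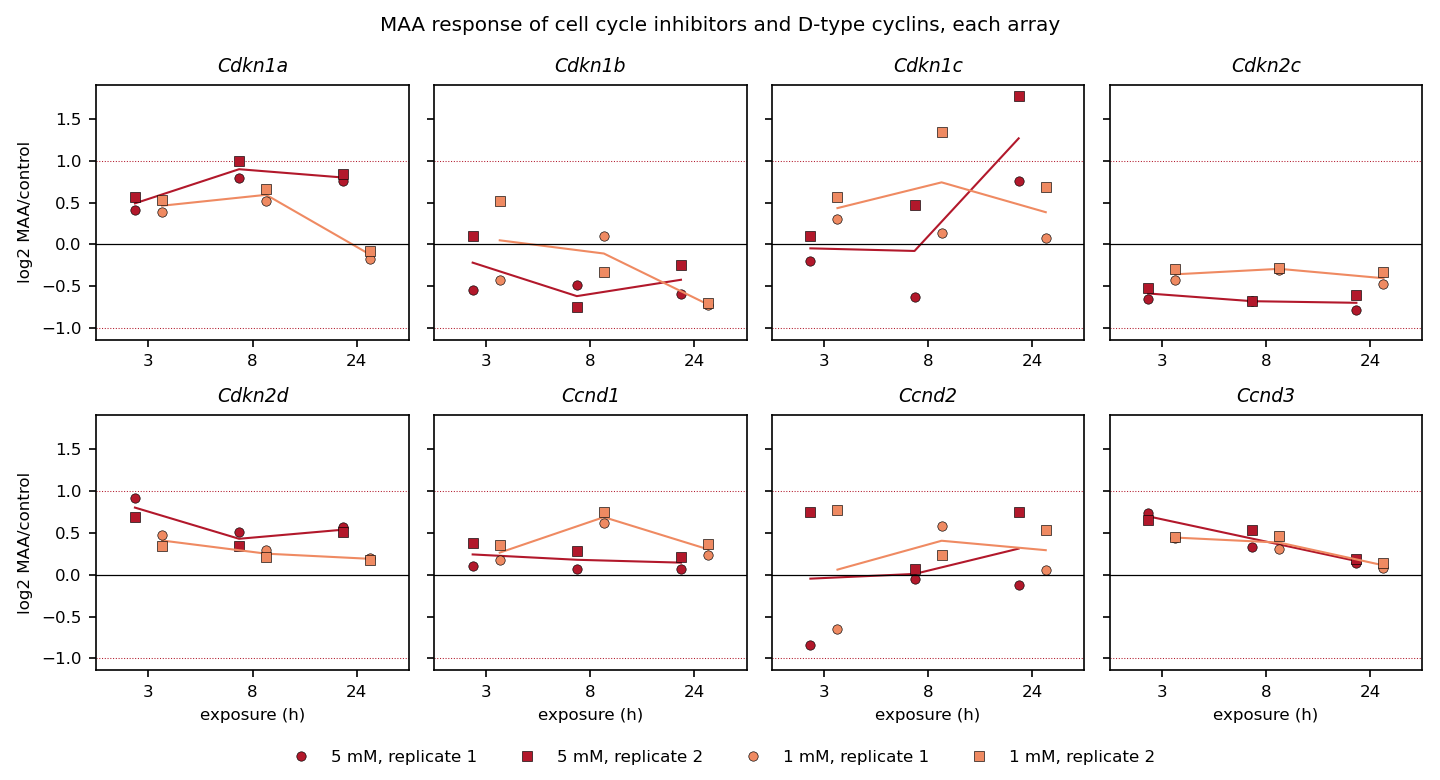
Log2 MAA/control (y axis) against hours of exposure (x axis) for the 8 members with signal above background on some arrays, with circles for replicate 1, squares for replicate 2, dark red for 5 mM, orange for 1 mM, lines through the means and dotted lines at the 2-fold limits. Both arrays lie above 0 at every 5 mM time for Cdkn1a, Cdkn2d, Ccnd1 and Ccnd3 and below 0 at every time and both concentrations for Cdkn2c, whereas the 3 h arrays of Ccnd2 lie on opposite sides of 0.

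Cdkn1a, whose product p21 stops cells at the G1/S boundary and is best known as a p53 target, rose at all 3 times of 5 mM MAA. The 2 arrays gave log2 MAA/control of 0.41 and 0.57 at 3 h, 0.80 and 1.00 at 8 h, and 0.76 and 0.84 at 24 h. All 6 arrays lay above 0, and only the second 8 h array reached a 2-fold change. The means were 1.41-fold at 3 h (log2 0.49 ± 0.081 SE, n = 2, adjusted p = 0.00362 by limma), 1.86-fold at 8 h (0.90, adjusted p = 0.000155) and 1.74-fold at 24 h (0.80, adjusted p = 0.000301), with the same SE at each time. Without the second 3 h array the 3 h value was 0.41 with an adjusted p of 0.0626, and without the first 8 h array the 8 h value of 1.00 was called. The 1 mM arrays gave 0.39 and 0.53 at 3 h, 0.52 and 0.66 at 8 h, and -0.17 and -0.07 at 24 h. Cdkn1a thus rose at 3 h (1.38-fold, adjusted p = 0.0225 by limma) and at 8 h (1.51-fold, adjusted p = 0.00928), where it was just over the threshold for a call, and both 24 h arrays lay just under 0 (log2 -0.12, adjusted p = 0.424). Without one or the other array the 1 mM value was 0.53 or 0.39 at 3 h (adjusted p = 0.111 and 0.245) and 0.66 or 0.52 at 8 h (adjusted p = 0.0923 and 0.14). The 8 h call at 1 mM was lost without the second array (log2 0.52) and with the slide as a block (0.55).

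The response of Cdkn1a differed between the concentrations at 24 h. The log2 ratio was 0.92 higher at 5 mM than at 1 mM at that time (95% interval 0.66 to 1.19, adjusted p = 0.00461 by limma), and no other member passed this contrast. At 3 h the difference between concentrations was 0.03 (interval -0.24 to 0.30, adjusted p = 0.943) and at 8 h it was 0.31 (interval 0.04 to 0.57, adjusted p = 0.156). At 1 mM the change from 3 to 24 h was -0.59 (interval -0.85 to -0.32) with an adjusted p of 0.0538, and it passed at 0.0076 with the replicate number as a block. Neither of these intervals at 3 and 8 h shows that the concentrations acted alike.

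Cdkn1b, the p27 inhibitor that holds cells in G0 and G1, did not pass the test in any treatment, and its arrays disagreed at 3 h. At 5 mM they gave -0.54 and 0.10 at 3 h, -0.49 and -0.75 at 8 h, and -0.60 and -0.25 at 24 h. With 1 mM they gave -0.43 and 0.53 at 3 h, 0.11 and -0.32 at 8 h, and -0.73 and -0.71 at 24 h. The lowest mean ratios were -0.62 at 5 mM for 8 h and -0.72 at 1 mM for 24 h (SE 0.24, adjusted p = 0.101 and 0.108 by limma), and at these treatments and at 5 mM for 24 h both arrays lay below 0. The second Cdkn1b probe gave -0.75 at 5 mM for 8 h (adjusted p = 0.103) and -0.69 at 1 mM for 24 h (adjusted p = 0.202). On the 1 mM arrays of 3 h, where the first probe disagreed most, the second read -0.93 and -0.10. The 5 mM value of the first probe at 8 h passed when the slide was a block (-0.78, adjusted p = 0.0209) and when either 1 mM array of 3 h was left out (-0.62, adjusted p = 0.0432).

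Cdkn1c, the imprinted p57 inhibitor, was at the edge of detection, well above background on 6 of 12 arrays in the MAA channel and on 4 in the control channel. At 5 mM for 24 h the arrays gave 0.76 and 1.77, with the MAA channel above background on both and the control channel on 1 of 2. The mean of 1.27 had an adjusted p of 0.038 by limma and was not called. This value moved with the processing, to 0.28 after normexp background correction and loess, and without the second array it was 0.76 with an adjusted p of 0.387. Leaving out the first array (1.77, adjusted p = 0.0572), or any array of 5 mM 3 h, 1 mM 3 h or 1 mM 24 h (1.27, adjusted p up to 0.0575), also took its adjusted p above 0.05. Its other arrays lay between -0.62 and 0.47 at 5 mM and between 0.08 and 1.34 at 1 mM, and none of those treatments passed.

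Cdkn2a and Cdkn2b, the INK4 genes that lie side by side on chromosome 4 and are induced in senescent cells, were not well above background in either channel on any of the 12 arrays, although Cdkn2a was printed in 10 spots. No fold is given for them, and whether the Cdkn2a probe reads the p16 transcript, the p19Arf transcript or both was not examined.

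Cdkn2c, which encodes the p18 inhibitor of CDK4 and CDK6, fell at every time of 5 mM MAA. The arrays gave -0.66 and -0.51 at 3 h, -0.68 and -0.68 at 8 h, and -0.79 and -0.61 at 24 h. All 6 arrays lay below 0. Both 8 h arrays lay just under those of 3 h, and the 24 h range overlapped those of 3 and 8 h. The means were -0.59, -0.68 and -0.70 (SE 0.073, n = 2 each, adjusted p = 0.00101, 0.000358 and 0.000353 by limma), the last of them a 1.62-fold lower signal. The 1 mM arrays gave -0.42 and -0.29 at 3 h, -0.30 and -0.28 at 8 h, and -0.47 and -0.33 at 24 h, all below 0 as well. Cdkn2c fell at 3 h (1.28-fold lower, adjusted p = 0.0389) and at 24 h (1.32-fold lower, adjusted p = 0.0142), and the 8 h value of -0.29 had an adjusted p of 0.0667 by limma. The 3 h value at 1 mM, which was not a call, no longer passed by adjusted p whichever of the 12 arrays was left out (log2 -0.42 to -0.29). Without one or the other 24 h array the 24 h value was -0.33 or -0.47 and did not pass. The 5 mM ratio minus the 1 mM ratio was -0.23 at 3 h (interval -0.47 to 0.01, adjusted p = 0.354), -0.39 at 8 h (interval -0.63 to -0.15, adjusted p = 0.0582) and -0.29 at 24 h (interval -0.54 to -0.05, adjusted p = 0.144), so none of these passed. With the replicate number as a block the 8 h and 24 h differences passed (adjusted p = 0.011 and 0.031).

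Cdkn2d, which encodes p19, the INK4 inhibitor whose level swings through the cell cycle, moved against Cdkn2c. At 5 mM the arrays gave 0.92 and 0.69 at 3 h, 0.51 and 0.35 at 8 h, and 0.57 and 0.51 at 24 h. The 3 h arrays lay above all later ones. The means were 1.74-fold at 3 h (log2 0.80 ± 0.078 SE, n = 2, adjusted p = 0.000319 by limma), 1.35-fold at 8 h (0.43, adjusted p = 0.00429) and 1.45-fold at 24 h (0.54, adjusted p = 0.00157). Without the first 8 h array the 8 h value was 0.35, with an adjusted p of 0.0742. On the 1 mM arrays it read 0.48 and 0.34 at 3 h, 0.30 and 0.21 at 8 h, and 0.21 and 0.18 at 24 h. All 6 lay above 0, and the 3 h mean passed (1.33-fold, adjusted p = 0.0302 by limma) while those at 8 and 24 h did not (adjusted p = 0.121 and 0.176). Without a 3 h array the 1 mM value was 0.34 or 0.48 (adjusted p = 0.242 and 0.148), and it was 0.41 with an adjusted p of up to 0.0674 without an array of 5 mM 24 h, 1 mM 8 h or 1 mM 24 h. The 5 mM ratio lay 0.39 above the 1 mM ratio at 3 h (interval 0.14 to 0.65, adjusted p = 0.117) and 0.35 above it at 24 h (interval 0.09 to 0.61, adjusted p = 0.106). The 3 h difference passed with normexp and loess (0.47, adjusted p = 0.0157), with the deposited ratios (0.42, adjusted p = 0.0436) and with the replicate number as a block (adjusted p = 0.0192), and the 24 h difference passed with normexp and loess (adjusted p = 0.0239), with the slide as a block (adjusted p = 0.0401) and with the replicate number as a block (adjusted p = 0.0178).

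Ccnd1, the D-type cyclin most often induced by growth factor signalling, passed the test in 1 treatment, 1 mM MAA for 8 h, although all 12 arrays lay above 0. The arrays at 1 mM gave 0.18 and 0.35 at 3 h, 0.62 and 0.76 at 8 h, and 0.24 and 0.37 at 24 h. The 8 h arrays lay above all others, with a mean of 1.61-fold (log2 0.69 ± 0.097 SE, n = 2, adjusted p = 0.0102 by limma). Without one or the other of these arrays the adjusted p was 0.104 or 0.145, although the value of 0.76 or 0.62 was still called. At 5 mM the arrays gave 0.10 and 0.38 at 3 h, 0.07 and 0.29 at 8 h, and 0.07 and 0.22 at 24 h. These means of 0.24, 0.18 and 0.15 did not pass (adjusted p = 0.125, 0.235 and 0.341). At 8 h the ratio at 5 mM lay -0.51 from that at 1 mM (interval -0.83 to -0.19, adjusted p = 0.0598), and this difference passed when the slide was a block (adjusted p = 0.0132) and with the replicate number as a block (adjusted p = 0.00332). Ccnd1 was higher on replicate 2 than on replicate 1 in 6 of 6 treatments, by 0.13 to 0.28, as were Cdkn1a, Cdkn1c and Cdkn2c, while Cdkn2d was lower on replicate 2 in all 6. Replicate and dye orientation cannot be told apart. With the replicate number as a block, Ccnd1 passed in the other treatments too, at 5 mM for 3, 8 and 24 h (adjusted p = 0.00581, 0.0167 and 0.0377) and at 1 mM for 3 and 24 h (adjusted p = 0.0144 and 0.00561).

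Ccnd2, the D-type cyclin typical of gonadal cells, gave opposite ratios on the 2 arrays of 3 h at both concentrations. The replicate 1 arrays read -0.84 (5 mM) and -0.65 (1 mM), and the replicate 2 arrays read 0.75 and 0.77. The means of -0.05 and 0.06 (SE 0.44) therefore describe neither array. The later arrays gave -0.05 and 0.07 at 8 h and -0.12 and 0.75 at 24 h with 5 mM, and 0.58 and 0.23 at 8 h and 0.06 and 0.53 at 24 h with 1 mM, and no treatment passed the test. A second Ccnd2 probe gave -0.73 and 0.61 at 5 mM for 3 h, and the third gave -0.18 and 0.14, so all 3 probes gave opposite signs on these arrays. In the single channels on a common scale (Aquantile normalization, log2 signal), the 4 MAA-treated samples of 3 h lay between 11.54 and 11.73, while the medium-alone channels read 12.38 and 12.37 on the replicate 1 arrays and 10.87 and 10.87 on the replicate 2 arrays. The split was thus on the control side. The gap of 1.51 between the replicate numbers was exceeded by 0.254% of the 23994 probes above background in the control channel on all arrays, whereas the 2 control channels of the same number differed by 0.00535 on average. The second Ccnd2 probe had a gap of 1.32 (exceeded by 0.446% of these probes), and the third a smaller one of 0.567 (exceeded by 5.02%). The first Cdkn1b probe split in the same manner, with 7.04 and 7.09 on replicate 1 and 6.22 and 6.13 on replicate 2, a gap exceeded by 1.67% of these probes.

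Ccnd3, the D-type cyclin found in most tissues and in differentiated cells, rose at 3 and 8 h of 5 mM MAA and did not pass at 24 h. At 5 mM the arrays gave 0.74 and 0.66 at 3 h, 0.33 and 0.53 at 8 h, and 0.14 and 0.19 at 24 h. The arrays of the 3 times did not overlap. The means were 1.62-fold at 3 h (log2 0.70 ± 0.071 SE, n = 2, adjusted p = 0.000389 by limma), 1.35-fold at 8 h (0.43, adjusted p = 0.00268) and 1.12-fold at 24 h (0.16, adjusted p = 0.131). The change from 3 to 24 h was -0.53 (interval -0.77 to -0.30, adjusted p = 0.0116), and no other member passed that contrast. Without the first 3 h array it was -0.50 (adjusted p = 0.058), without the first 24 h array -0.51 (adjusted p = 0.0724) and without the second -0.56 (adjusted p = 0.0581). The 1 mM arrays read 0.44 and 0.45 at 3 h, 0.30 and 0.46 at 8 h, and 0.08 and 0.14 at 24 h. Ccnd3 rose at 3 h (1.36-fold, adjusted p = 0.0164 by limma) and at 8 h (1.31-fold, adjusted p = 0.0248) but did not pass at 24 h (adjusted p = 0.394). The 3 h value was 0.45 or 0.44 without a 3 h array (adjusted p = 0.133 and 0.164), and the 8 h value was 0.46 or 0.30 without an 8 h array (adjusted p = 0.132 and 0.254) and 0.38 without an array of 5 mM 24 h or 1 mM 24 h (adjusted p up to 0.0558). The concentrations differed by 0.25, 0.05 and 0.05 at 3, 8 and 24 h, and none of these differences passed.

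**Figure D2:**
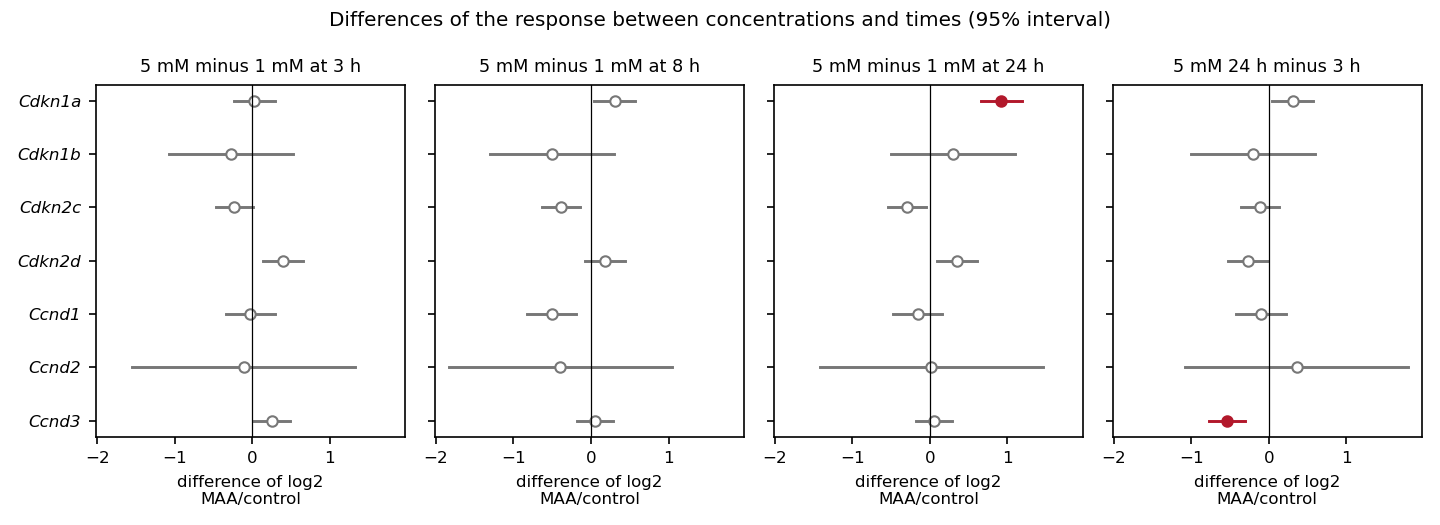
Differences of log2 MAA/control (x axis) between 5 and 1 mM at each time and between 24 and 3 h at 5 mM, for the 7 members above background on all arrays (y axis), with bars for 95% intervals and filled red points where the adjusted p was under 0.05. Cdkn1a at 24 h (0.92) and Ccnd3 over time (-0.53) are filled, and the bars of Cdkn1b and Ccnd2 are the widest.

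Single-channel signals showed that several members also moved with time in medium alone. The 4 control channels of a time came in close pairs of the same replicate number, and neither the labels nor the methods say that these were separate cultures, so the tests were repeated with each pair averaged, a choice made after the values were seen. In medium alone Ccnd1 read 12.40 to 12.59 at 3 h, 11.51 to 11.68 at 8 h and 12.54 to 12.73 at 24 h. The 8 h channels lay below all others. The log2 level fell by 0.91 from 3 to 8 h (adjusted p = 1.57e-09 by limma over 4 channels, 0.0206 over averaged pairs) and rose by 1.04 from 8 to 24 h (adjusted p = 2.16e-10 and 0.0134). The MAA-treated channels at 5 mM averaged 11.74 at 8 h, just above the controls, and those at 1 mM read 12.30 and 12.31.

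Ccnd3 in medium alone read 12.19 to 12.30 at 3 h, 12.39 to 12.57 at 8 h and 12.98 to 13.19 at 24 h. These ranges did not overlap, and the rise from 3 to 24 h was 0.83 (adjusted p = 7.19e-10 by limma, 0.00884 with pairs averaged). With 5 mM MAA the mean level was 12.98 at 3 h and 13.23 at 24 h, so at 3 h it already lay near the 24 h control range. Cdkn2d in medium alone read 11.49 to 11.69 at 3 h, 11.76 to 11.91 at 8 h and 11.07 to 11.16 at 24 h, and fell by 0.46 from 3 to 24 h (adjusted p = 3.02e-07, 0.024 with pairs averaged). Cdkn1a in medium alone read 10.63 to 10.81 at 3 h, 10.25 to 10.49 at 8 h and 10.07 to 10.40 at 24 h. Its fall of 0.50 from 3 to 24 h had an adjusted p of 6.61e-06 over 4 channels and 0.0538 with pairs averaged. With 5 mM MAA Cdkn1a read 11.20 and 11.21 at 3 h, 11.29 and 11.29 at 8 h and 11.16 and 11.03 at 24 h, with a narrower span of means over time than in medium alone. Cdkn2c in medium alone read between 13.18 and 13.57 over all times. Its fall of 0.20 from 3 to 24 h passed over 4 channels (adjusted p = 0.00569 by limma) but not with pairs averaged (adjusted p = 0.185). The same held for its fall of 0.25 from 8 to 24 h (adjusted p = 0.00154 and 0.169). Of the 10 members, 4 changed from 3 to 8 h, 5 from 3 to 24 h and 6 from 8 to 24 h over 4 channels, against 38.0%, 47.9% and 37.0% of 41016 probes. With pairs averaged 1, 2 and 3 members changed, against 11.7%, 28.7% and 12.7% of probes.

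**Figure D3:**
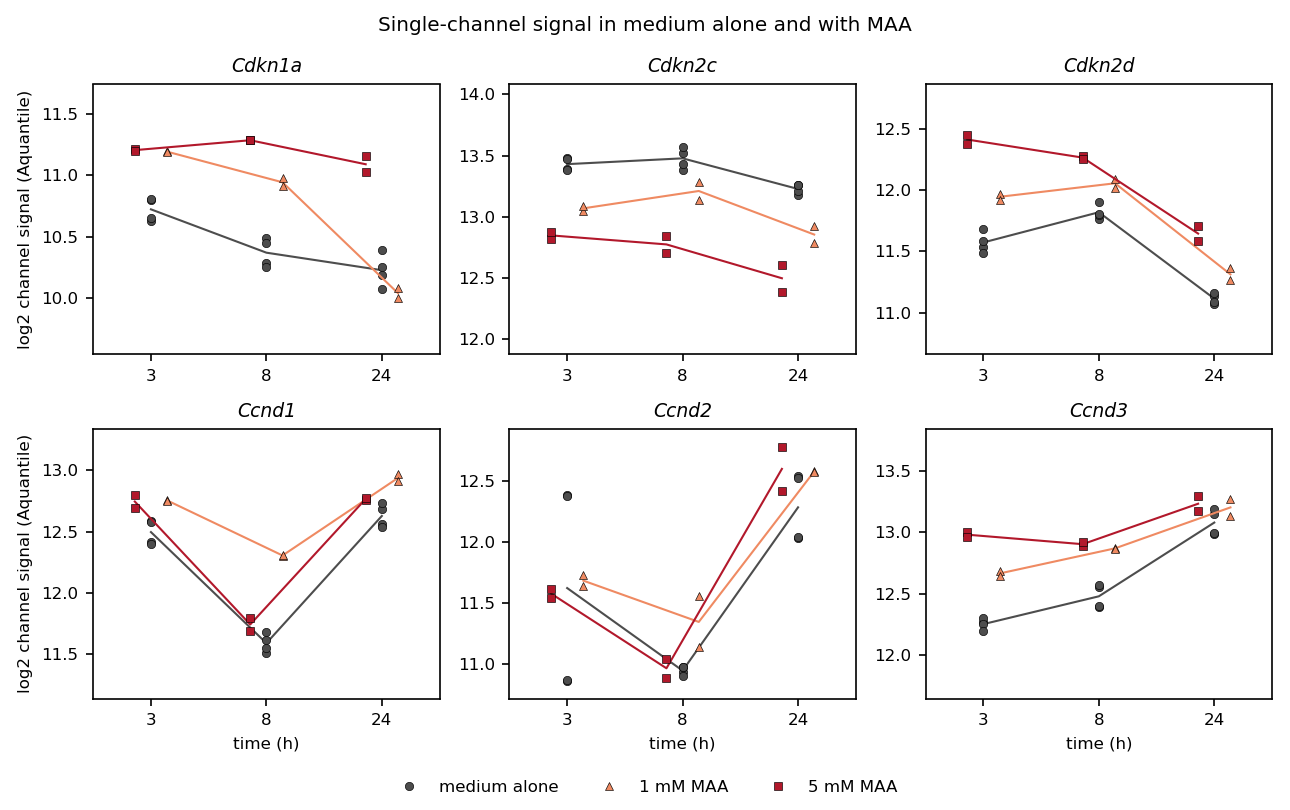
Log2 channel signal after Aquantile normalization (y axis, each panel spanning 2.2 log2 units) at 3, 8 and 24 h (x axis) for 6 members, with grey circles for the 4 medium-alone channels, orange triangles for 1 mM MAA, red squares for 5 mM MAA and lines through the means. Ccnd1 dips at 8 h in medium alone (11.51 to 11.68) and not as far at 1 mM (12.30), Ccnd3 climbs in medium alone, and the 3 h control channels of Ccnd2 split at 12.38 and 10.87.

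The other genes of the pathway were taken from 7 lists that hold 108 genes with a probe. Of these 108, 2 were called up and 1 down at 5 mM for 3 h, 4 up and 5 down at 8 h, and 4 up and 1 down at 24 h, where 3.76%, 5.55% and 5.62% of all probes were called. At 1 mM, 2, 3 and 3 were called up and 0, 0 and 2 down, where 1.95%, 2.37% and 4.68% of all probes were called.

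Among the partners of the members, 0 of the 6 G1 kinase, cyclin E and CDC25A genes were called. By adjusted p 4 of the 6 fell at 5 mM for 24 h, against 15.8% of all probes, and they are named here after their values were seen. These were Cdk4 (-0.54) and Cdk6 (-0.52), the kinases that D-type cyclins activate, Ccne2 (-0.44) and the phosphatase gene Cdc25a (-0.65). The median of the list at 24 h was -0.48, beside 0.03 for all probes. At 5 mM for 8 h, 2 of the 6 rose and 3 fell, where 15.4% of all probes rose and 15.0% fell. The cyclin E genes Ccne2 (0.58, adjusted p = 0.000553 by limma) and Ccne1 (0.40, adjusted p = 0.000691) rose at that time, so the fall of Ccne2 was particular to 24 h. At 1 mM for 8 h, 2 rose and 0 fell, where 3.40% and 2.13% of all probes did. Of 12 pocket protein, E2F and DP genes, E2f2 and Rb1 were called. E2f2 gave 1.63 and 1.33 on the arrays of 5 mM 8 h (2.78-fold, adjusted p = 0.000205 by limma). Rb1, the retinoblastoma gene, gave 1.09 and 1.06 at 24 h (2.10-fold, adjusted p = 9.76e-05). By adjusted p, 5 genes of this list rose and 0 fell at 8 h, where 15.4% of all probes rose and 15.0% fell, and 2 rose and 3 fell at 24 h, near the 14.6% and 15.8% of all probes.

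Of 12 genes for ubiquitin ligase subunits, which mark these inhibitors and cyclins for breakdown, Fbxo4 was called. Fbxo4, an F-box gene for the destruction of cyclin D1, gave -1.59 and -1.49 at 5 mM for 8 h, 2.91-fold lower (adjusted p = 6.89e-06 by limma). At 24 h 7 genes of the list fell and 1 rose by adjusted p, against 15.8% and 14.6% of all probes, with a median of -0.39 beside 0.03 for all probes. Of 21 genes of the p53 list, 3 were called up and 0 down at 5 mM for 8 h, where 5.55% of all probes were called either way. Plk2 gave 1.44 and 1.53 (2.80-fold, adjusted p = 1.87e-05 by limma), Pmaip1, the NOXA gene of apoptosis, gave 1.49 and 1.25 (2.58-fold, adjusted p = 4.24e-05), and Fas, a death receptor, gave 1.04 and 1.24 (2.20-fold, adjusted p = 5.58e-05). By adjusted p 7 of the 21 rose and 3 fell at 8 h, against 15.4% and 15.0% of all probes, and Trp53 itself was among those that fell (-0.69 at 8 h and -0.57 at 24 h).

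Of 22 S phase and mitosis genes, 18 fell and 0 rose by adjusted p at 5 mM for 24 h, against 15.8% and 14.6% of all probes, with a median of -0.49 beside 0.03. Rrm1, a subunit of ribonucleotide reductase, was the one called, with -1.20 and -1.31 on the arrays (2.39-fold lower, adjusted p = 0.000157 by limma). At 8 h 9 fell and 4 rose, against 15.0% and 15.4% of all probes, and at 3 h 11 fell and 1 rose, against 12.3% and 11.8%. Of 10 other cyclins, Ccng2, which is linked to arrest, was called down, with -1.07 and -1.19 at 3 h (2.18-fold lower, adjusted p = 6.37e-05).

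Of 25 factors known to act on Cdkn or Ccnd genes, 3 were called down and 0 up at 5 mM for 8 h, where 5.55% of all probes were called either way. Id3 gave -2.07 and -1.83 (3.86-fold lower, adjusted p = 8.85e-06 by limma) and Id2 gave -1.16 and -1.56 (2.57-fold lower, adjusted p = 0.000433), both inhibitors of E-proteins. Bmi1, the Polycomb gene known to silence Cdkn2a, gave -1.19 and -1.14 (2.24-fold lower, adjusted p = 2.51e-05), while Cdkn2a stayed below background on all arrays. Klf4, known to raise Cdkn1a, was called up at 24 h with 1.32 and 1.28 (2.46-fold, adjusted p = 6.82e-05). By adjusted p 8 factors rose and 4 fell at 24 h, against 14.6% and 15.8% of all probes, with a median of 0.18 beside 0.03 for all probes.

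**Figure D4:**
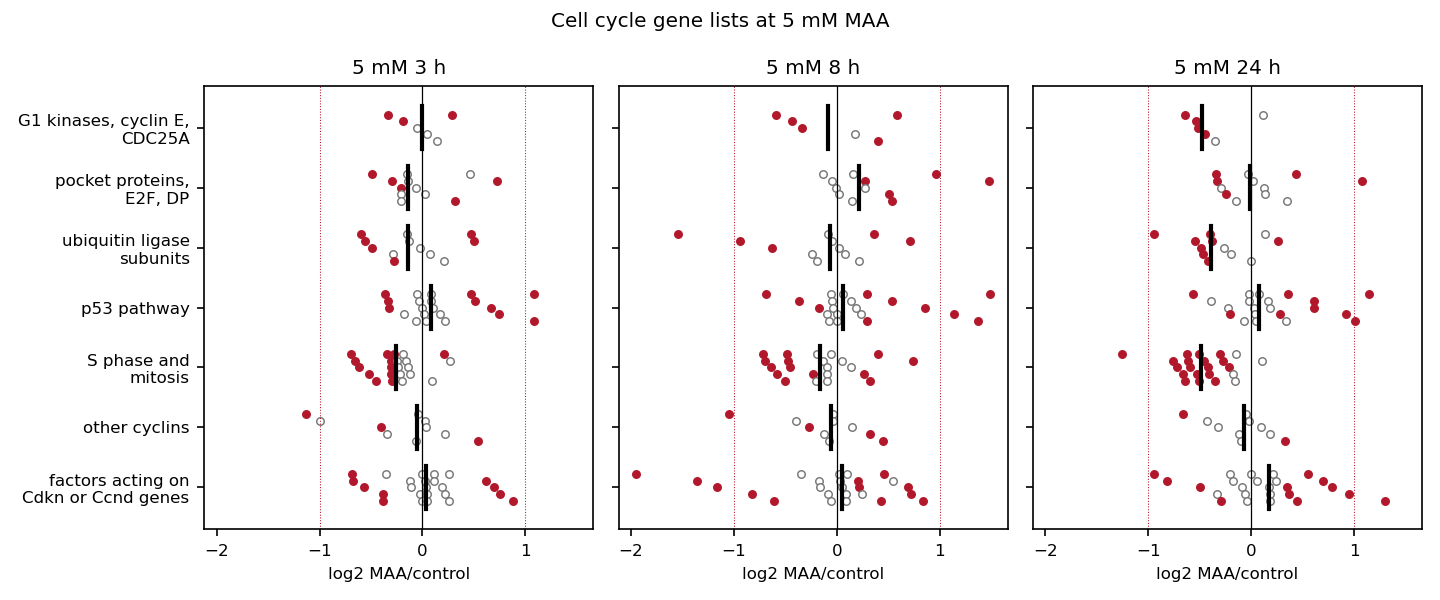
Log2 MAA/control at 5 mM (x axis) for each gene of the 7 lists (y axis), with filled points where the adjusted p was under 0.05, open points elsewhere, black bars at the list median and dotted lines at 2-fold. The S phase and mitosis points lie mostly left of 0 at 24 h (median -0.49), and points beyond the dotted lines are few in every list.

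The genes whose ratios over the 12 arrays ran most like those of the 4 members that changed at more than one 5 mM time were looked for among 15037 probes above background in one channel or both on all arrays, and this choice of members was made after their values were seen. For Cdkn1a they were Myc (Pearson r = 0.959), H2aj (0.957) and Dcxr (0.934). For Cdkn2c they were Pttg1 (0.982), Mgst2 (0.973) and the cyclin A gene Ccna2 (0.969). For Cdkn2d they were 1600012H06Rik (0.967), Dnajb4 (0.950) and Zc3h12a (0.938), and for Ccnd3 they were Pelp1 (0.951), Noc3l (0.950) and Phf13 (0.946). Arrays of a time were set against medium-alone cells of that time and share dye orientations, so these values are descriptions, and a close pattern did not mean a like size, as Myc reached 0.47 at 5 mM for 8 h where Cdkn1a reached 0.90.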

How the data were processed

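RNA of MAA-treated and medium-alone TM3 cells had been labelled with Alexa 555 or Alexa 647 and hybridized to 12 two-colour arrays. The authors used Agilent Feature Extraction 9.5.3.1 to correct background and normalize the dyes by linear and LOWESS fits. Each deposited scanner file gives these processed signals as intensity values, with flags for spots. A deposited set of log10 ratios, which the authors had turned to MAA over control, was used as an alternative. Precision is limited by the number of arrays.

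Control spots and outlier spots were left out, the spots of a probe were averaged, and log2 MAA/control was computed from the intensities without centring for 41174 probes. The GeneName column was planned as the key to the members but holds accessions, which were matched to RefSeq symbols (22082 probes named). All 12 arrays were fitted in limma 3.58.1 (R 4.3.3, packages jsonlite 2.0.0 and data.table, version 1.17.8) with 6 coefficients, and p-values were adjusted by Benjamini-Hochberg over all probes. These rest on the spread between the 2 arrays of a treatment, pooled over the 6 treatments and drawn towards that of all probes. They do not measure the spread within 1 treatment alone. That spread holds the exchange of dyes as well as differences between pools of cultures. Single channels were normalized by Aquantile and fitted with lmscFit. Figures used Python 3.11.15 and matplotlib 3.10.9. Changes were simulated for 5 mM 3 h in 200 of 41174 probes, all of them above background in both channels on all 12 arrays. An adjusted p under 0.05 was reached by 84% of 2-fold and 96.5% of 4-fold changes, and 50.5% and 99% were called. Of the unchanged probes, 52 and 36 were called, and 6 and 7 had an adjusted p under 0.05. The noise was independent between arrays, with no replicate or dye effect. These rates may therefore not hold for dim probes or for the real arrays.

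Named genes are all members, up to 4 called genes per list with the largest 5 mM ratios, the genes most like a member, and the Leydig markers. Cdk4, Cdk6, Ccne1, Ccne2, Cdc25a, Trp53 and the markers of other cell types fall outside this rule and were named after their values were seen. The members, lists and tests were chosen with earlier results of these data known. No member was called at 5 mM, so likeness was computed for members that changed at more than one 5 mM time. Rosetta Resolver's error model and qPCR were not analysed here. E2f3, Mki67, Cdkn3, Ccnl2, Zbtb16, Cd68 and Csf1r matched no probe.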

Additional observations from a re-analysis of the deposited data

Results flagged for a closer look

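The response of Cdkn1a at 24 h differed between the concentrations, by 0.92 on the log2 scale for 5 mM minus 1 mM (adjusted p = 0.00461 by limma), and the difference passed under all 20 alternatives in which it was computed, from 0.86 to 0.97. The response of Ccnd3 to 5 mM MAA differed between times, by -0.53 for 24 h minus 3 h (adjusted p = 0.0116 by limma), and it passed under 17 of 20 alternatives. At 1 mM both arrays of Cdkn1a lay below 0 at 24 h and both above it at 8 h, a difference of -0.72 that was not tested.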

How the results depend on the processing

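Across 21 alternatives the 5 mM results of Cdkn2c at all times, Cdkn1a at 8 and 24 h, Cdkn2d at 3 and 24 h and Ccnd3 at 3 and 8 h kept their direction and an adjusted p under 0.05 by limma (at most 0.04997, for Ccnd3 at 8 h), and none of the results reversed. Counts of members given below are out of 10, with the reported count in brackets.

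With normexp and loess, members with an adjusted p under 0.05 were 5 (3) at 1 mM 8 h and 2 (1) at 24 h, members with a difference were 1 (0) for 5 mM 8 h minus 3 h, 2 (1) for 24 h minus 3 h, and 1 (0), 2 (0) and 3 (1) for 5 mM minus 1 mM at 3, 8 and 24 h, and list genes called at 1 mM 3 h were 0 (2). With the deposited ratios, differences were 2 (0) for 5 mM 8 h minus 3 h, 1 (0) for 1 mM 24 h minus 3 h, and 1 (0) and 2 (0) for the concentrations at 3 and 8 h. Centring the arrays left 0 (4) and 0 (1) members by adjusted p at 1 mM 3 and 24 h and 1 (2) list gene at 3 h. Without dim probes, differences were 1 (0) for 5 mM 8 h minus 3 h, 1 (0) for 1 mM 24 h minus 3 h and 2 (0) for the concentrations at 8 h.

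Calling by adjusted p with no fold gave 4, 4 and 4 members (0 each) at 5 mM, 4 (0) and 1 (0) at 1 mM 3 and 24 h, 47 (3), 54 (9) and 58 (5) list genes at 5 mM, and 7 (2), 12 (3) and 16 (5) at 1 mM. With the arrays of 1 concentration alone, 0 members passed at 1 mM (4, 3 and 1 at the 3 times), with 1 (2) list gene called at 3 h. With the mean of all probes of a gene, 5 (3) list genes were called at 1 mM 8 h. Keeping the outlier spots moved none of these counts by more than 1.5 times.

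With the slide as a block, 1 (0) member was called at 5 mM 24 h, Cdkn1c, and 1 (2) at 1 mM 8 h, 5 (3) and 2 (1) members passed at 1 mM 8 and 24 h, 1 (2) list gene was called at 1 mM 3 h, and differences were 1 (0) for 5 mM 24 h minus 8 h, 3 (1) for 24 h minus 3 h, 1 (0) for 1 mM 24 h minus 3 h, and 2 (0) and 3 (1) for the concentrations at 8 and 24 h. Within a slide the values are those of the single arrays. With the replicate block, 1 (0) member was called at 5 mM 24 h, Cdkn1c, 5 (3) and 3 (1) passed at 1 mM 8 and 24 h, 1 (2) list gene was called at 1 mM 3 h, and differences were 2 (0), 1 (0) and 4 (1) for 5 mM 8 h minus 3 h, 24 h minus 8 h and 24 h minus 3 h, 1 (0) for 1 mM 24 h minus 3 h, and 1 (0), 3 (0) and 3 (1) for the concentrations at 3, 8 and 24 h. The numbers were not taken to pair the arrays in the main fit. Over all probes, deviations of same-numbered arrays correlated at 0.075 to 0.515 (median 0.375) over 15 pairs of treatments. Over probes well above background on all 12 arrays they correlated more strongly, at 0.039 to 0.773 (median 0.520). Moreover, 12 of 12 arrays correlated best with an array of their own number. Which of the 2 fits is the better was not tested.

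Leaving out 1 array at a time, with the lone array assumed to vary like the rest, gave ranges of 0 to 0 members called at 5 mM 3 and 24 h and at 1 mM 3 and 24 h, 0 to 1 at 5 mM 8 h and 1 to 2 at 1 mM 8 h. By adjusted p they were 3 to 4, 3 to 5 and 3 to 4 at 5 mM for 3, 8 and 24 h and 0 to 3, 0 to 3 and 0 to 1 at 1 mM. List genes called ranged over 1 to 3, 8 to 9 and 5 to 5 at 5 mM and 1 to 2, 3 to 3 and 3 to 5 at 1 mM. Members with a difference ranged over 0 to 1 for 5 mM 24 h minus 3 h, 1 to 1 for the concentrations at 24 h and 0 to 0 for the other contrasts. The causes of these shifts were not tested. Dim signal limits Cdkn1c and leaves Cdkn2a and Cdkn2b without a value.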
